A study of Mus musculus with 18 samples.

Results

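The 10 carbonic anhydrase genes described here were Car2, Car3, Car4, Car5b, Car7, Car8, Car9, Car12, Car13 and Car14, measured in the lungs of mice gavaged with a mixture of polycyclic aromatic hydrocarbons. They were found by mapping the RefSeq accession of every probe to a gene, and they were covered by 12 of the 55681 probes and made up 10 of the 20660 named genes on the array. Car4 and Car8 had 2 probes each. The probe with the higher mean log2 intensity over both channels stands for the gene unless the other is named. The family was chosen by the measured fall of Car14 at the high dose against vehicle, so its values against vehicle are given as a description without a test. The question for the other 9 genes was whether they fell with it.

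The animals were male MutaTMMouse, a transgenic strain that carries a bacterial reporter gene for scoring mutations, aged about 12 weeks and housed singly. All were dosed by oral gavage on 28 consecutive days, and lungs were taken 72 hours after the last dose. The vehicle group (n = 5) received olive oil alone, and the low (n = 4), medium (n = 5) and high (n = 4) groups received the 4PAH-Mix in olive oil at 12.5, 25 and 50 mg benzo[a]pyrene equivalents per kg body weight per day. The 4PAH-Mix contained benzo[a]pyrene, benz[a]anthracene, benzo[b]fluoranthene and chrysene. Each mouse was 1 two-colour array, on which Cy5 carried its lung RNA and Cy3 carried a reference RNA pooled from mouse cell lines, so every value below is a log2 ratio of lung to reference at 1 probe unless another scale is named. Such ratios order the mice at 1 probe and do not order genes. Median signals over all probes were 110 to 142 in Cy5 and 75 to 89 in Cy3, and the share of probes well above background in Cy5 was 51.5% to 61.1%. The vehicle means of Sftpc at 7.30, Ager at 5.77 and Scgb1a1 at 7.66, markers of alveolar type 2, alveolar type 1 and airway club cells, were those of lung tissue measured against cultured cells.

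Carbonic anhydrases are zinc enzymes that interconvert carbon dioxide and bicarbonate with release or uptake of a proton. In the lung this reaction lets bicarbonate carried in blood leave as gas, and in many tissues it sets pH on either side of the plasma membrane. Car2, Car3, Car7 and Car13 are cytosolic, Car5b is mitochondrial, and Car8 is a cytosolic relative that lacks catalytic activity. Car4, Car9, Car12 and Car14 face the outside of the cell: Car4 is held by a lipid anchor, while the other members of this group span the membrane.

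Car14, the membrane-spanning isoform known from kidney, brain, eye and heart, fell at every dose. Its log2 ratios in the vehicle mice were 2.75, 2.88, 2.38, 2.61 and 2.80. In the low dose mice they were 1.70, 1.35, 1.54 and 1.39, and in the medium dose mice 0.95, 1.12, 1.20, 0.78 and 0.87. In the high dose mice they were 1.00, 0.75, 0.73 and 1.04. Every dosed mouse therefore lay below every vehicle mouse, every medium dose mouse lay below every low dose mouse, and the medium and high groups overlapped. Over all named genes 3.35%, 5.96% and 10.7% had no overlap with vehicle at the rising doses. That share was not counted for medium against low.

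The group means of Car14 were 2.68 ± 0.20 (SD, n = 5) in vehicle, 1.49 ± 0.16 (n = 4) at the low dose, 0.98 ± 0.18 (n = 5) at the medium dose and 0.88 ± 0.16 (n = 4) at the high dose. Against vehicle the log2 fold changes were -1.19 (SE 0.11), -1.70 (SE 0.10) and -1.80 (SE 0.11), or 2.28-fold, 3.25-fold and 3.49-fold lower. The 95% interval at the high dose ran from -2.04 to -1.57. At that dose Car14 had the third largest fall among called named genes whose groups did not overlap, after Gzma at -2.25 and Cxcl5 at -2.12 and just ahead of Spon2 at -1.76. The tenth in that order was Tmeff2 at -1.21, and the next was Klra16 at -1.20. This order rests on the values by which Car14 was chosen, and genes whose groups overlapped were left out. The study's own list gave Vps16, Hspa1a and Spon2 larger high dose falls than Car14. In whole lung, fewer cells of a type and less RNA per cell cannot be told apart.

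**Figure D1:**
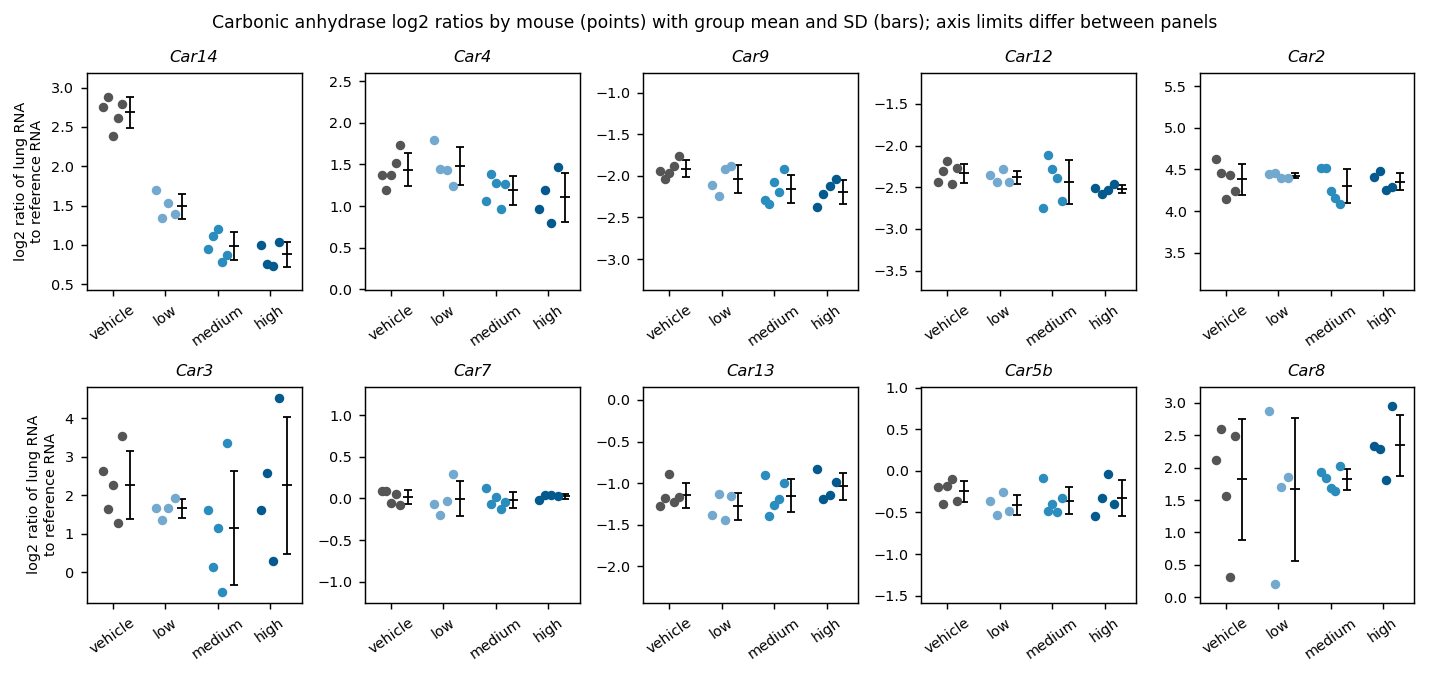
Log2 ratio of lung over reference signal (y axis) for each of the 10 carbonic anhydrases in each mouse, by dose group (x axis). Points are mice and bars are the group mean with SD; axis limits differ between panels. Car14 stepped down from a vehicle mean of 2.68 to 0.88 at the high dose, while Car3 and Car8 scattered widely within groups.

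The step from the low to the medium dose used neither the vehicle nor the high dose mice, but Car14 was chosen with the values of all groups known, so it too is given without a test of the gene. Car14 was 0.51 lower on the log2 scale in the medium group (difference -0.51, SE 0.11, 95% interval -0.74 to -0.28). In the limma fit across all probes no named gene was called in that comparison, Car14 included (percent called 0), and 5.40% of named genes had an unadjusted p below 0.05. From medium to high the log2 difference was -0.10 (95% interval -0.33 to 0.13).

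The arrays lay on 3 slides, each holding mice of all groups. Within the slides the Car14 log2 difference from vehicle was -1.30, -0.96 and -1.41 at the low dose, -1.78, -1.51 and -1.93 at the medium dose, and -1.94, -1.77 and -1.76 at the high dose. The medium to low difference was -0.49, -0.55 and -0.52 within them. The fall was thus present on each slide. The column of the slide went with the dose group on every slide, so column and dose cannot be told apart.

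Before normalization, the Cy5 signal of the Car14 spot was 587 to 1094.5 in vehicle mice, 278 to 383 at the low dose, 203 to 286.5 at the medium dose and 197 to 317 at the high dose. It was well above its local background of about 71 to 82 in all 18 mice. The Cy3 signal at the same spot, which came from the reference RNA, also stood lower in dosed arrays, with a mean of 109.7 in vehicle and 88.6 at the high dose. On the log2 scale the high to vehicle difference was -1.80 in Cy5 and -0.30 in Cy3, whereas the Cy3 differences of the other 11 member probes lay between -0.04 and 0.25. In a ratio of Cy5 to Cy3, a lower Cy3 taken alone gives a higher value. The cause of the Cy3 difference, and its part in the ratio after loess, were not tested. These channel values are before normalization, whereas the ratio difference of -1.80 is after loess. With median centring instead of loess the ratio difference was -1.58.

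**Figure D2:**
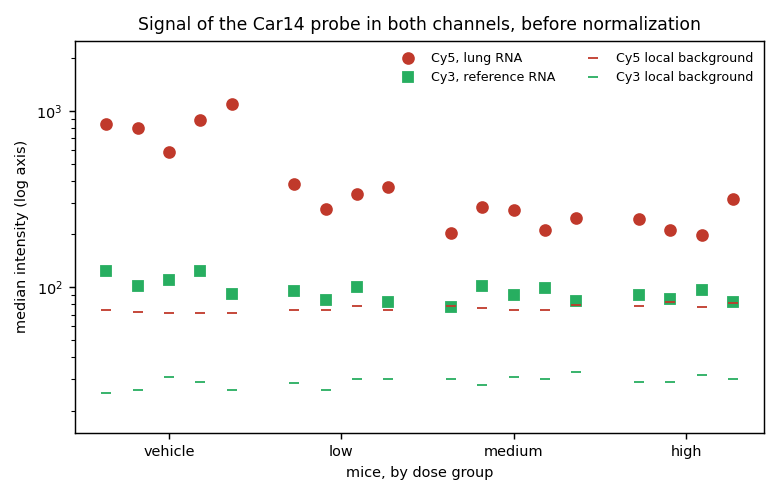
Median signal of the Car14 spot (y axis, log scale) in each mouse by dose group (x axis), before normalization. Circles are Cy5 (lung RNA), squares are Cy3 (reference RNA) and dashes are the local backgrounds. Cy5 fell from 587 to 1094.5 in vehicle mice to 197 to 317 at the high dose, with Cy3 between 77 and 123 throughout.

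The RefSeq promoter windows of Car14 and Car9 are shown because Car14 carries the fall and Car9 is the family member best known as a target of the hypoxia-inducible factors. Each window runs 5′ to 3′ on the gene's strand, from 250 bases before to 50 bases after a RefSeq start in GRCm38.p6. The Car9 start is that of the annotated gene. The Car14 start lies inside the annotated gene, so the bases before that gene's outermost start were not searched. Capitals mark any match, on either strand, to GCGTG, the core bound by the aryl hydrocarbon receptor that polycyclic aromatic hydrocarbons activate, or to ACGTG, the core bound by hypoxia-inducible factors. These cores share their last bases but no match is counted under both, and the letters alone do not tell the factors apart.
Car14, chr3:95904636-95904935, minus strand: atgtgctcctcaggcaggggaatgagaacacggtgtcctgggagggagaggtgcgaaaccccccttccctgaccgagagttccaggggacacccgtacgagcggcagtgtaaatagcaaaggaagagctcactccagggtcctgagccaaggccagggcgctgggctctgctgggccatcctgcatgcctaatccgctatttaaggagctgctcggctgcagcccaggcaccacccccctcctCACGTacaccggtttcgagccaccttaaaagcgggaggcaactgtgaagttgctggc
Car9, chr4:43506776-43507075, plus strand: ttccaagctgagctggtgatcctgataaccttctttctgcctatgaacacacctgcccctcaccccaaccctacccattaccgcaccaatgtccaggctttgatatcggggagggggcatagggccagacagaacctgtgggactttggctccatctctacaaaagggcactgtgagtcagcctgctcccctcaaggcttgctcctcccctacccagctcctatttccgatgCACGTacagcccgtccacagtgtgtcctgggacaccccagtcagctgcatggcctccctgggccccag

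Neither window held GCGTG or its reverse complement, a match that 32.4% of the 32851 promoter windows of this length held. Each held 1 match to ACGTG, read as CACGT on the strand shown, starting at position -7 in Car14 and -18 in Car9, counted back from the start. This match was present in 19.6% of all windows. Windows were found for 6 of the 10 genes. Car4 also held 1 match to ACGTG, starting at position 3 after the start. Car5b, on chromosome X, had 5 matches to GCGTG, the windows of Car7 had 2, 0 and 1, and Car12 had no match to either core. A match is a description of the letters only.

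Of the other 9 carbonic anhydrases, none was called at any dose by limma, with an adjusted p at or below 0.05 and a change of at least 1.5-fold. Car14 itself was called at each, but the family was chosen by its fall. The family count of 1 of 10 genes at every dose rests on that choice and is no test of the family. The low dose call was lost with the scanner software's ratios and with median centring, while the change of Car14 there lay between -1.40 and -1.02 over all settings. Among all named genes the share called was 0.160%, 0.934% and 1.51%, from the lowest dose to the highest. Without an adjustment, 0, 1 and 2 of the 9 had p below 0.05, where 9.26%, 19.7% and 20.0% of named genes did. The lowest adjusted p among the 9 was 0.755, 0.165 and 0.132 at the rising doses. Their median log2 fold change was -0.12, -0.11 and -0.03, beside 0.01, 0.02 and 0.02 over all named genes. At the rising doses 7, 8 and 6 of the 9 were lower than vehicle, beside 46.3%, 45.1% and 43.6% of all named genes.

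**Figure D3:**
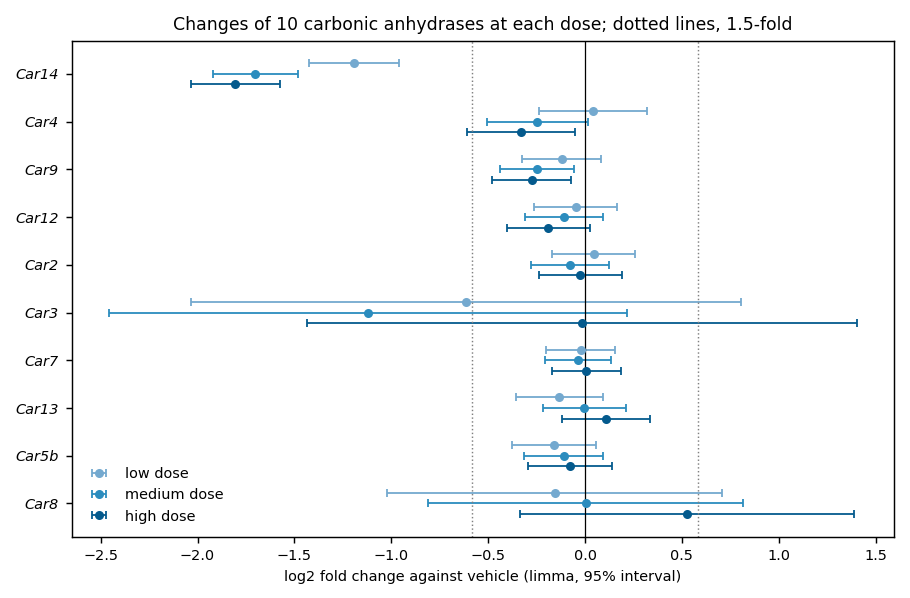
Log2 fold change against vehicle (x axis) with the 95% interval from limma for 10 carbonic anhydrases (y axis) at the low, medium and high dose; dotted lines mark 1.5-fold. Car14 lay between -1.80 and -1.19, while the intervals of Car3 and Car8 at all doses, and of Car4 at the high dose, reached past a 1.5-fold line.

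Of the other 9 genes, Car9, whose enzyme faces the outside of the cell, had the lowest adjusted p at the medium and high doses. Car9, which is low in most normal tissues and induced by low oxygen, was -1.94, -2.03, -1.96, -1.88 and -1.76 in vehicle mice. It was -2.10, -2.24, -1.92 and -1.89 at the low dose and -2.29, -2.34, -2.07, -2.19 and -1.92 at the medium dose. At the high dose it was -2.37, -2.22, -2.13 and -2.04, so all high dose mice lay just below all vehicle mice. Against vehicle it changed by -0.12, -0.25 and -0.28 on the log2 scale at the rising doses, the last with an SE of 0.10 and a 95% interval from -0.48 to -0.07. The limma adjusted p was 0.165 in the medium and 0.132 in the high group. The exact permutation p was 0.0317 in the medium and 0.00794 in the high group, out of 37 such tests on these genes, with no adjustment among them. With slide as a block the limma adjusted p was 0.0301 in the medium and 0.0256 in the high group, and the change stayed under 1.5-fold. Within slides the high dose difference was -0.31, -0.21 and -0.28. Under median centring instead of loess, its high dose difference was -0.07 and the adjusted p 0.979. Before normalization the Cy5 signal of Car9 differed by -0.01 on the log2 scale between the high dose and vehicle groups.

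Car12, a further membrane-spanning isoform of epithelia, shifted less. It was -2.46 to -2.18 in vehicle mice with a median of -2.31, and -2.44 to -2.28 at the low dose. At the medium dose it was -2.75 to -2.12, and at the high dose -2.58 to -2.46. The lowest vehicle mouse and the highest high dose mouse nearly touched. The high dose log2 fold change was -0.19 (95% interval -0.40 to 0.03, limma adjusted p = 0.404, exact permutation p = 0.0317). Under median centring instead of loess it was -0.02, and before normalization the Cy5 signal of Car12 was 0.05 higher on the log2 scale in the high dose group. Car9 and Car12 at the high dose were the only 2 of 27 comparisons of the other 9 genes with vehicle in which the groups did not overlap. Over all named genes the groups did not overlap for 3.35%, 5.96% and 10.7% from the lowest dose to the highest, and neither Car9 nor Car12 was among the 1.51% called at the high dose.

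Car4, the lipid-anchored isoform, lies on the surface of lung capillaries and marks a distinct class of alveolar capillary endothelial cells. It was 1.37, 1.20, 1.37, 1.51 and 1.73 in vehicle mice, and 1.79, 1.44, 1.44 and 1.24 at the low dose. It was 1.06, 1.39, 1.27, 0.97 and 1.26 at the medium dose, and 0.96, 1.19, 0.80 and 1.47 at the high dose. The groups overlapped at each dose, with 3 of 4 high dose mice below all vehicle mice. The log2 fold changes were 0.04, -0.25 and -0.33, the last with an SE of 0.13 and a 95% interval from -0.61 to -0.05. Median centring gave -0.10 at the high dose, Cy5 alone turned the medium dose value to 0.000797, and before normalization Cy5 and Cy3 were 0.23 and 0.25 higher at the high dose. At the high dose the unadjusted limma p was 0.022, the adjusted p 0.205 and the exact permutation p 0.0952. The second Car4 probe gave -0.20 at the high dose (limma adjusted p = 0.486), and on slide 3 it gave 0.22 where the first probe gave -0.26.

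Markers of capillary endothelium moved in both directions beside Car4. Of 12 such markers, 2 were called higher at the high dose and 2 lower, beside 0.736% and 0.774% of all named genes. Counting all changes at that dose, 4 of the 12 were higher and 8 lower. The markers named here were picked after their values were seen. Pecam1, the pan-endothelial adhesion molecule, rose by 0.74 on the log2 scale and Emcn, a sialoglycoprotein of capillary and venous endothelium, by 0.81. Ednrb, the endothelin receptor B that marks the same capillary class as Car4, fell by 0.98 at the high dose (limma adjusted p = 0.00297) and by 0.68 at the medium dose. Gpihbp1, which anchors lipoprotein lipase in the other capillaries, fell by 1.16 (adjusted p = 0.000131). Fibin, a further marker of the Car4 class, had a change of -0.65 (adjusted p = 0.0777). The mean log2 ratio of the 12 markers was 3.67 to 4.02 in vehicle, 3.81 to 4.10 at the low dose, 3.58 to 4.05 at the medium dose and 3.59 to 3.77 at the high dose. Their part in the values of Car4 or Car14 was not tested.

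Among the cytosolic enzymes, Car2, the fast isoform of red cells and many epithelia, was steady. It was 4.15 to 4.63 in vehicle mice (median 4.43), 4.40 to 4.46 at the low dose, 4.08 to 4.52 at the medium dose and 4.25 to 4.48 at the high dose. The high dose log2 fold change was -0.03 with a 95% interval from -0.24 to 0.19, which excludes a change of 1.5-fold. Car7, known from brain and muscle, lay between -0.20 and 0.29 in all mice, and its high dose change was 0.01 (SE 0.09). Car13 had a mean of -1.15 in vehicle and -1.04 at the high dose, a change of 0.11 (limma adjusted p = 0.722).

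Car3, the slow cytosolic isoform abundant in fat and muscle, varied more between mice than between groups. It was 2.62, 1.64, 2.26, 1.28 and 3.54 in vehicle mice, 1.68, 1.35, 1.66 and 1.93 at the low dose, and 1.62, 0.14, 1.14, -0.50 and 3.35 at the medium dose. At the high dose it was 1.60, 2.59, 0.29 and 4.52. The highest and the lowest mice both belonged to dosed groups, and all groups overlapped. The high dose difference was -0.02 with a 95% interval from -1.44 to 1.40. Car13, Car1, Car3 and Car2 neighbour each other on chromosome 3, and Car3 alone of them had this scatter: its SD at the high dose was 1.78, beside 0.11 for Car2.

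The mice high in Car3 were those high in fat cell genes. The mean log2 ratio of 8 adipocyte markers was 3.10 in the high dose mouse with Car3 at 4.52 and 0.78 in the medium dose mouse with Car3 at -0.50. Adipoq, the adipocyte hormone, was 2.87 and -0.28 in the same mice, and Cfd, the adipocyte protease adipsin, was 7.09 and 0.93. By group the mean of the list ranged from 1.38 to 2.26 in vehicle, 1.43 to 1.65 at the low dose, 0.78 to 2.12 at the medium dose and 1.20 to 3.10 at the high dose. None of the 8 was called at any dose, beside 0.160%, 0.934% and 1.51% of named genes at the rising doses. The part of fat tissue in the Car3 values was not tested. Skeletal muscle markers, of which 0 of 8 were called at the high dose, gave a summed Cy5 signal of 853 to 1325 over all mice.

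**Figure D4:**
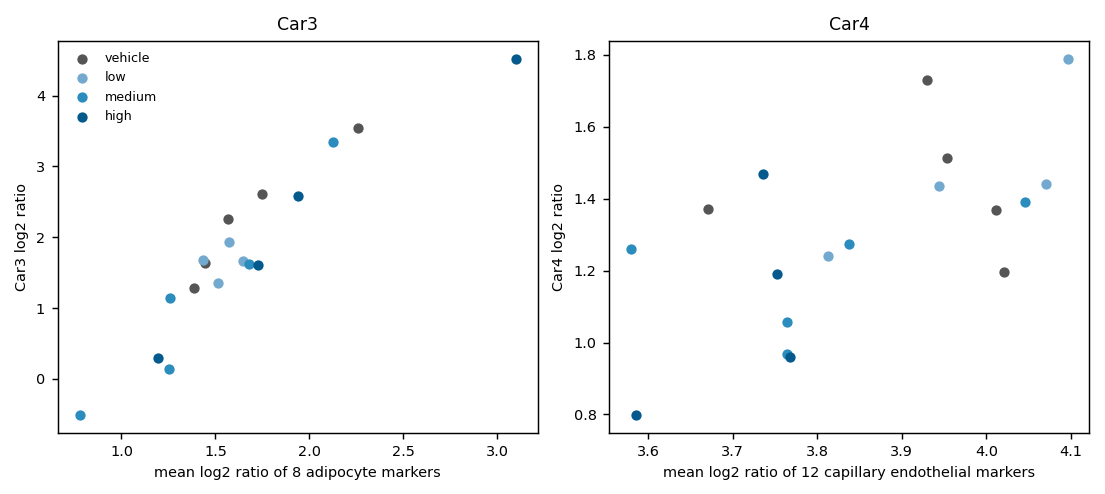
Each point is a mouse. Left, Car3 log2 ratio (y axis) against the mean log2 ratio of 8 adipocyte markers (x axis); right, Car4 against the mean of 12 capillary endothelial markers. Car3 ran from -0.50 to 4.52 along with the adipocyte mean from 0.78 to 3.10, and the high dose mice lay between 3.59 and 3.77 on the capillary axis.

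The mitochondrial isoform Car5b, which supplies bicarbonate to biosynthesis inside mitochondria, was dim: it was well above background in 4 of 5 vehicle and 4 of 5 medium dose mice and in all others. Its mean was -0.25 in vehicle and -0.33 at the high dose, a change of -0.08. Car8, which binds the inositol trisphosphate receptor in neurons, had no reference signal well above background on any array, so its ratio follows Cy5 over a reference at background. It was 2.12, 2.60, 1.57, 0.31 and 2.50 in vehicle mice, 2.88, 0.21, 1.71 and 1.86 at the low dose, 1.64 to 2.02 at the medium dose and 2.34, 2.29, 1.81 and 2.95 at the high dose. Single vehicle and low dose mice, at 0.31 and 0.21, stood below the rest. The high dose change was 0.53 (SE 0.42, 95% interval -0.34 to 1.39, limma adjusted p = 0.619), and without the vehicle mouse at 0.31 it was 0.15. The second Car8 probe gave 0.60 (unadjusted p = 0.0495, adjusted p = 0.316).

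The remaining carbonic anhydrases of the array, Car1, Car5a, Car6, Car10, Car11 and Car15, gave 0 of 6 genes called at any dose. Their high dose changes ran from -0.12 in Car1, the red cell isoform, to 0.03 in Car11, and 3 of the 6 were well above background in Cy5 in all vehicle mice. Erythroid markers, of which 8 were measured, also had none called at the high dose, where 1.51% of all named genes were.

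Carbonic anhydrases work with transporters that move bicarbonate and protons, and none of these was called at any dose. Of all named genes 0.160%, 0.934% and 1.51% were called at the rising doses. None of 15 bicarbonate transporter genes was called at the high dose, with a median of -0.07 and a range from -0.42 in Slc26a9, a chloride channel and exchanger of airway epithelium, to 0.27 in Slc4a1, the red cell anion exchanger. Unadjusted limma p-values at the high dose were below 0.05 for 3 of the 15, beside 20.0% of all named genes. Slc26a4, the exchanger pendrin, had larger values at the lower doses, with -1.12 at the low (limma adjusted p = 0.239) and -0.81 at the medium dose (adjusted p = 0.163). Of 10 genes of proton and lactate export none was called, with values from -0.24 in Slc9a3r2, a scaffold of the sodium-proton exchanger, to 0.06 in Hvcn1, a proton channel, and 1 had an unadjusted p below 0.05. Of 7 gas and water channel genes none was called, with values from -0.28 in Aqp4 to 0.15 in Rhag, and again 1 had an unadjusted p below 0.05. Aqp1, the water channel of endothelium, had its largest value at the medium dose, -0.46 (limma adjusted p = 0.0509), beside -0.21 in the high group.

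Hypoxia targets, the set in which Car9 is usually placed, gave 1 of 12 genes called at the high dose, beside 1.51% of named genes. Adm, which encodes the vasodilator adrenomedullin, was -1.84, -3.08, -2.09, -2.64 and -1.84 in vehicle mice and -3.54, -3.19, -3.04 and -3.59 at the high dose. It fell by 1.04 on the log2 scale (limma adjusted p = 0.00807), although a vehicle mouse lay within the high dose range. Pfkfb3, a regulator of glycolysis, was called higher at the medium dose (0.68, adjusted p = 0.000943) and had 0.50 at the high dose (adjusted p = 0.0145), under the fold limit. Ndrg1, a stress-responsive gene, had 0.37 in the medium (adjusted p = 0.0388) and 0.41 in the high group (adjusted p = 0.0269), also under the fold limit. At the high dose 3 of the 12 had an unadjusted p below 0.05, beside 20.0% of all named genes. The median of the 12 was -0.05 at the high dose.

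The genes whose pattern was most like that of Car14 over 18 arrays were sought among 14366 named genes. Their lung signal was well above background on every array of at least a single group, so a gene could pass through the group where it was high. The highest Pearson correlations were those of Tecpr1 at 0.939, Cav1 at 0.937, Gata2 at 0.937, Wasl at 0.937 and Sh3d19 at 0.935. The lowest were those of Cdkn1a at -0.972, Serp2 at -0.970, Commd3 at -0.962, Gdf15 at -0.959 and Phlda3 at -0.958. All points share the dose groups and the reference RNA. Once group means were removed, the correlations lay between 0.37 and 0.48 for the first set and between -0.65 and -0.10 for the second. Cav1, the coat protein of caveolae, went from a mean of 2.71 in vehicle to 2.28, 2.02 and 2.03 at the rising doses, and Cdkn1a, the cell cycle inhibitor p21, from -0.72 to 0.67, 1.37 and 1.75. Within the family, the correlation of Car14 was 0.62 with Car9, 0.53 with Car4, 0.44 with Car12 and between -0.18 and 0.24 with the other 6. Once group means were removed the order was another: the correlation was -0.05 with Car9, 0.45 with Car4, 0.30 with Car12 and 0.57 with Car8, which had been -0.03.

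Other cell types of the lung gave few calls beside these genes. All 7 alveolar type 2 and all 6 alveolar type 1 markers measured were lower than vehicle at the medium and high doses, where 45.1% and 43.6% of all named genes were. Of the type 2 markers none was called at the high dose, with a median of -0.23, though Abca3 at -0.35 (limma adjusted p = 0.0336) and Slc34a2 at -0.37 (adjusted p = 0.0401) passed but for the fold limit. Of the 6 type 1 markers 4 had an unadjusted p below 0.05 at the high dose, beside 20.0% of all named genes. Cav1, which endothelium also expresses, was the only call among them, falling by 0.68. None of 4 airway club markers, 10 cardiomyocyte markers or 8 skeletal muscle markers was called at the high dose, where 1.51% of all named genes were. The cardiomyocyte mean ran from 0.24 to 3.75 over all mice. The part of these markers in the carbonic anhydrase values was not tested.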

How the data were processed

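Lung RNA of 18 mice was hybridised to 18 two-colour Agilent 8x60K arrays on 3 slides. The deposited scanner files, per the file headers from Feature Extraction 11.0.1.1, gave each spot's median intensity and local background, and the log10 ratio of Cy5 to Cy3 made by that software. A table deposited by the authors held log2 ratios after LOWESS normalization within arrays. Here, following the study's methods, spot medians with no background subtracted were normalized by loess within each array with limma 3.58.1 in R 4.3.3, control spots having weight 0. Spots flagged as outliers (215 to 307 per array) were left out, so that 86 probes lacked a value in 1 or more mice, and probes of the same name were averaged.

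A limma model with the 4 groups was fitted to all 55681 probes. P-values were adjusted by Benjamini-Hochberg over all of them, and a gene was called at an adjusted p of at most 0.05 and a change of at least 1.5-fold. The study's own test, a permutation of residuals in MAANOVA, was not run. Single genes were also compared by exact two-sided permutation tests over mice. The mice are separate animals, so SD and p measure the spread between them, with precision limited by how few arrays there are. The fit was also run on simulated independent normal values. These held no slide, column or normalization effects, so that run cannot speak to such effects.

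The genes and the lists were chosen with earlier results of these data known. Genes named were the 10 members; of the lists of other carbonic anhydrases, bicarbonate transport, proton and lactate export, gas and water channels and hypoxia targets, those called at any dose and those with the largest high dose change in each direction; and the 5 genes most and least correlated with Car14. Slc26a4, Aqp1, Ndrg1 and the named cell markers were added after their values were seen. RefSeq accessions were named through RefSeq's GRCm38.p6 table, which matched 27235 probes, while the array files name another build, so gene positions other than the promoter windows are not printed. Rtkn2, Scgb3a2, Hbb-b1 and Ahsp had no probe under that name and were not analysed. The alternatives were other background correction, normalization, channel, batch, filter, probe and sample choices.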

Additional observations from a re-analysis of the deposited data

Results flagged for a closer look

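Of 48 sets of values (12 probes in 4 groups), 1 held a mouse far from the rest of its group: Car13 in the vehicle mice. Vehicle mouse 3 had a log2 ratio of -0.89 and the other 4 lay between -1.27 and -1.17, so that the gap took up 0.729 of the range, above Dixon's critical value of 0.71 for 5 samples. Chance gives such a gap in about 1 in 20 sets. No cause was tested.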

How the results depend on the processing

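The call of Car14 held at the medium and high doses under all 12 alternatives and with each mouse left out (1 to 1 member called at each dose). These fits reuse the values by which Car14 was chosen, so they describe the processing and do not test the gene. At the low dose 0 members were called with the scanner software's ratios and 0 with median centring, while the Car14 change there lay between -1.40 and -1.02 over all settings. The Car14 change at the high dose lay between -2.05 (Cy5 alone) and -1.58 (median centring), and between -1.88 and -1.75 with a mouse left out. Its medium to low difference lay between -0.66 and -0.45 over the alternatives, and between -0.56 and -0.44 with a mouse left out. None of the other 9 genes was called in any alternative. Pathway genes called at the high dose numbered 1 to 1 with a mouse left out, 0 with median centring, 2 with scale normalization and 3 without a fold limit; the cause of the first 2 was not tested. The sign turned in 15 of 297 values of the other 9 genes; among them Car4 at the medium dose had been -0.25. With median centring, Car7 and Car12 at the low dose became 0.059 and 0.032, Car2, Car7 and Car13 at the medium dose 0.018, 0.022 and 0.016, and Car2 and Car3 at the high dose 0.163 and 0.098. With scale normalization, Car2 became 0.084 and 0.216 at the medium and high doses and Car3 0.051 at the high dose. With Cy5 alone, Car2 at the low dose became -0.043, Car4 and Car8 at the medium dose 0.000797 and -0.13, and Car5b at the high dose 0.026. With the scanner software's ratios, Car13 at the medium dose became 0.0084. With a mouse left out, the low dose ranges that crossed 0 were Car2 -0.014 to 0.107, Car4 -0.063 to 0.12, Car7 -0.12 to 0.044 and Car8 -0.56 to 0.33. Those at the medium dose were Car8 -0.37 to 0.20 and Car13 -0.066 to 0.061. Those at the high dose were Car2 -0.084 to 0.037, Car3 -0.77 to 0.64 and Car7 -0.020 to 0.023. No paired analysis was possible because each mouse has a number of its own in the labels, which tie no mice across groups. Car8 and Car5b were limited by signal near background.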
